A study of Mus musculus with 12 samples.

Results

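Cxcl1 and Cxcl2 are neighbouring genes for chemokines that attract neutrophils, and Cxcr2 encodes their shared receptor. These 3 genes were taken as all probe sets whose RefSeq accession belongs to them, which gave 4 of the 1246 probe sets in the table: 1 for Cxcl1, 1 for Cxcl2 and 2 for Cxcr2. The table held 909 named genes in all. The genes were chosen by their log2 levels at 2 h against non-wounded samples, with those results already known, so the values at 2 h are given as a description without a test.

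The study measured gene expression by single-colour arrays in mouse skin samples to find genes that change early after wounding. Samples were taken after wounding at 0 h (1 sample), 30 min (2 samples), 2 h (4 samples) and 4 h (1 sample), and 4 samples were non-wounded. All titles begin with B6, and no genotype, treatment other than wounding, sex or age is given. The labels speak of dendritic epidermal T cells, gamma-delta T cells that live in mouse epidermis, while the design text plans whole epidermis, and the labels do not say whether samples came from separate mice. The epidermal galectin Lgals7 lay between 10.997 and 12.36 in all samples (log2 levels). The EGF family ligand Areg lay between 2.76 and 4.98, and the Langerhans cell lectin Cd207 between 6.57 and 9.32. Of the 4 measured T cell markers, the adhesion molecule Cd2 lay between 4.52 and 5.75, the cytokine receptor chain Il2rb between 4.61 and 5.96, the activation marker Cd69 between 2.27 and 2.99 and the activating receptor Klrk1 between 2.27 and 3.12. CD3 and T cell receptor chains were not analysed here.

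The 5 samples numbered 1 in the titles, 1 in each group, stood apart from the 7 numbered 2 to 4. Their log2 values spread less over probe sets (SD 1.55 to 1.85, against 2.19 to 2.30). On the first principal component, which held 66.9% of the variance, their scores were 12.6 to 23.0, against -16.2 to -11.4 for those numbered 2 to 4. All values at 0 h and 4 h come from a sample numbered 1. Results are therefore given for each set of samples as well as together. A p-value reflects only how these samples vary, and that variation may be technical.

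Cxcl1, also called KC, and Cxcl2, also called MIP-2, are small secreted CXC chemokines that carry the letters ELR before the CXC motif. Chemokines of this kind bind CXCR2, a G-protein coupled receptor carried mainly by neutrophils, and draw these cells out of blood vessels toward injured tissue. Keratinocytes, macrophages and other cells of skin make both ligands after stimuli such as interleukin 1, largely through the transcription factor NF-kB. The receptor is known mainly from leukocytes, so in tissue its transcript can mark arriving cells.

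The promoters of the ligands and the receptor are shown because both ligand genes were high in the same samples at 2 h and the receptor was not. The RefSeq tables (GRCm38.p6) place Cxcl1 and Cxcl2 next to each other on chromosome 5 with 0 protein-coding genes between them, and Cxcr2 on chromosome 1. The 130 bases before each start site follow, on the plus strand, at chr5:90891115-90891244, chr5:90903769-90903898 and chr1:74153864-74153993. Capitals mark matches, on either strand, to an NF-kB-like motif: GGG, then any 3 bases, then TTCC.
Cxcl1: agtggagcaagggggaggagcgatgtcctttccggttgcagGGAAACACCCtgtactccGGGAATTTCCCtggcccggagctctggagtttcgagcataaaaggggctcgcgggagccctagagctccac
Cxcl2: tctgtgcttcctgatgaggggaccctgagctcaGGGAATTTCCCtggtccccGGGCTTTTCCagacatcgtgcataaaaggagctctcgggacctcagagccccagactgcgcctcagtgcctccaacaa
Cxcr2: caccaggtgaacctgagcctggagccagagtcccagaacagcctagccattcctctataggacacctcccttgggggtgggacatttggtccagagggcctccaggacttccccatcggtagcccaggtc

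Both ligand promoters held the run gggaatttccctgg, the longest run of letters shared by their upstream sequences, with 14 bases. It starts 71 bases before the start of Cxcl1 and 97 bases before that of Cxcl2. Within this run the motif matches on both strands in overlapping positions. Each ligand has 1 further match, GGAAACACCC for Cxcl1 on the minus strand and GGGCTTTTCC for Cxcl2 on the plus strand. Of the 32851 RefSeq promoter windows of 300 bases (250 before and 50 after the start), 5.56% hold a match to the NF-kB-like motif, and 2 hold the 14-base run. The Cxcr2 window had no match. The AP-1-like motif TGANTCA, on both strands, had no match in any of the 3 windows, against 7.81% of all windows. A match is a description of letters and not evidence that a factor binds there.

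Cxcl2 was higher at 2 h than without wounding in every sample. Its level was 6.72, 6.76 and 6.58 in the samples at 2 h numbered 2, 3 and 4 and 3.83 in the one numbered 1, against 2.87, 2.78, 2.99 and 2.73 in their non-wounded counterparts. The 3 samples numbered 2 to 4 lay close together at 2 h, the sample numbered 1 lay far below them, and the groups did not overlap. The means were 5.97 ± 1.43 at 2 h and 2.84 ± 0.11 in non-wounded samples (SD, n = 4 each), a log2 difference of 3.13 ± 0.58 (SE) or 8.74-fold. Among all probe sets, 2.01% had all 4 samples at 2 h above all 4 non-wounded samples, and Cxcl2 had the 4th highest difference of the 1246.

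Cxcl1 was also higher at 2 h in every sample, with a wider spread. Its level was 5.60, 7.10 and 6.28 in the samples at 2 h numbered 2, 3 and 4 and 4.09 in the one numbered 1, against 3.28, 3.23, 3.35 and 3.62 in their non-wounded counterparts. The groups did not overlap, and the sample at 2 h numbered 1 was again the lowest of its group. The means were 5.77 ± 1.28 at 2 h and 3.37 ± 0.17 in non-wounded samples (SD, n = 4 each), a log2 difference of 2.40 ± 0.54 (SE) or 5.27-fold. It ranked 6th among the differences of all probe sets. In such bulk samples, more cells that make a transcript and more RNA per cell cannot be told apart.

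**Figure D1:**
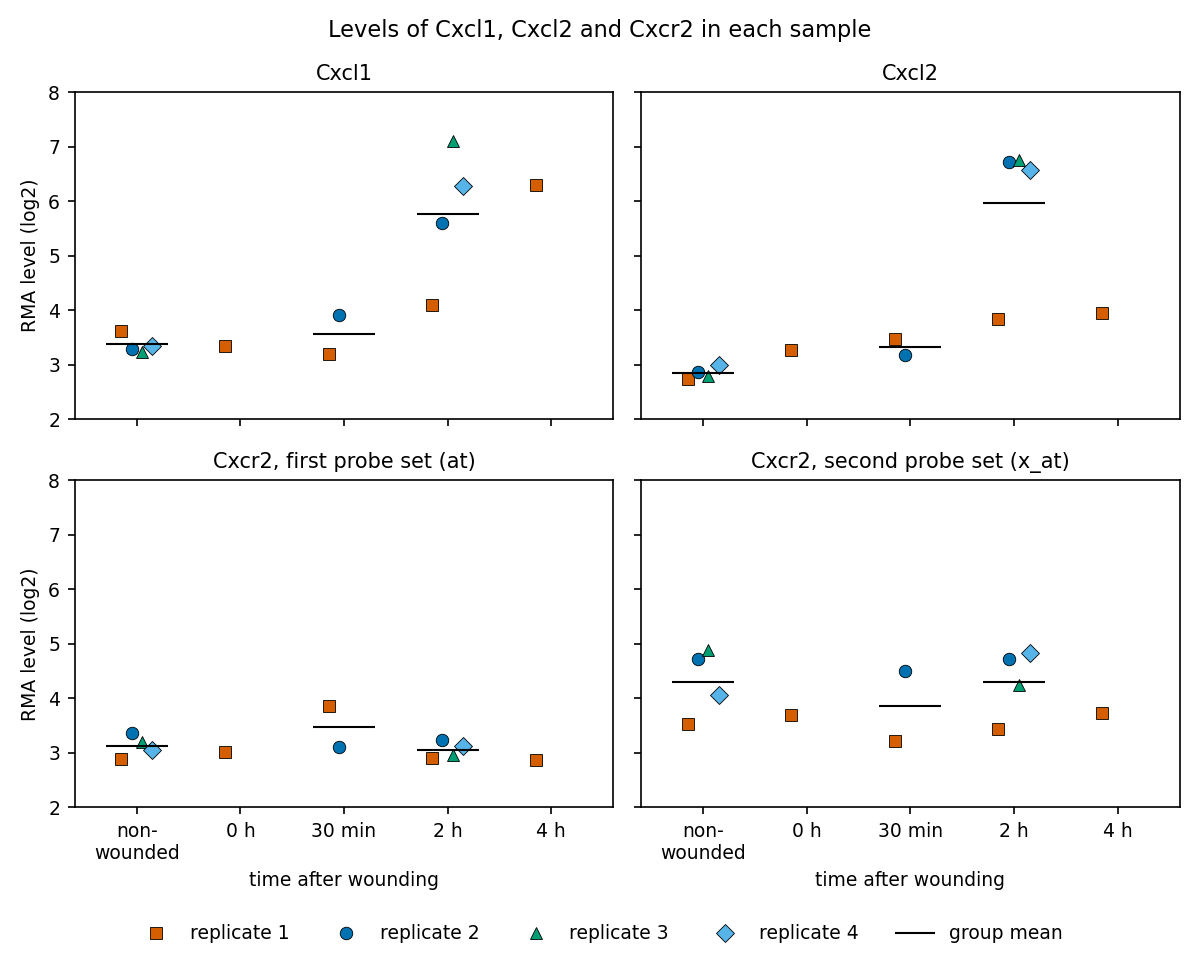
RMA level (log2) of the 4 probe sets in each of the 12 samples, by time after wounding, with symbols for the replicate number and bars for group means. Cxcl2 is highest in the samples numbered 2 to 4 at 2 h, Cxcl1 is high in these and in the single sample at 4 h (6.30), and neither Cxcr2 probe set follows them.

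The 2 sets of samples differed in the size of the 2 h difference. Without the sample at 2 h numbered 1, the log2 difference from all 4 non-wounded samples was 3.84 for Cxcl2 and 2.96 for Cxcl1. In the samples numbered 2 to 4 alone, the log2 difference between 2 h and non-wounded was 3.80 ± 0.09 (SE) for Cxcl2 and 3.04 ± 0.34 for Cxcl1, with n = 3 each. Between the samples numbered 1 it was 1.10 for Cxcl2 and 0.47 for Cxcl1, with no replicate. Pair by pair, the Cxcl2 difference was 3.85, 3.97 and 3.59 for numbers 2, 3 and 4, and the Cxcl1 difference was 2.32, 3.87 and 2.93. The Cxcl2 difference exceeded the Cxcl1 difference in all 4 pairs, by 0.10 for number 3 up to 1.53 for number 2. The non-wounded Cxcl2 levels, 2.73 to 2.99, lay under the 25th percentile of the mean levels of all probe sets (3.197), and those of Cxcl1 (3.23 to 3.62) just above it. With no detection call, these baselines are not shown to be above background, so the folds and the order of the ligands are on the RMA scale only. Over all probe sets, 13.4% were higher at 2 h in all 4 pairs. The narrower range of values in the samples numbered 1 went with their smaller differences, and its part in them was not tested.

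Cxcr2 at 2 h overlapped with its non-wounded levels. By its first probe set, the level was 3.23, 2.96, 3.13 and 2.90 in the samples at 2 h numbered 2, 3, 4 and 1, against 3.36, 3.2, 3.05 and 2.89 in the matching non-wounded samples. The groups overlapped, and the log2 difference was -0.07 ± 0.20 (SE). The mean level of this probe set, 3.13, lies under the 25th percentile of the mean levels of all probe sets (3.197). With no detection call, an unchanged and an undetected transcript cannot be told apart by it. By its second probe set, the level was 4.71, 4.25, 4.82 and 3.44 at 2 h, against 4.72, 4.88, 4.05 and 3.52 in the same order of non-wounded samples, and the log2 difference was 0.01 ± 0.43 (SE). This probe set carries the Affymetrix suffix x_at, which marks probes that may also bind other sequences. Its level split by replicate number and not by time: the 5 samples numbered 1 lay between 3.22 and 3.73 and the other 7 between 4.05 and 4.88. The correlation of the 2 probe sets was 0.015 over the 12 samples (Pearson) and 0.701 over the 7 numbered 2 to 4, as a description of values that share arrays.

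At 30 min the ligands were close to their non-wounded levels. This comparison did not pick the genes and was tested with limma over all 1246 probe sets. Cxcl2 was at 3.18 in the sample at 30 min numbered 2 and 3.47 in the one numbered 1, both above the non-wounded range of 2.73 to 2.99. Its log2 difference was 0.48 ± 0.71 (SE), with a limma adjusted p of 0.811. Among all probe sets, 2.49% had both samples at 30 min above all 4 non-wounded samples. Cxcl1 was at 3.92 in the sample numbered 2 and 3.19 in the one numbered 1, on either side of the non-wounded range of 3.23 to 3.62. Its log2 difference was 0.19 ± 0.66 (SE, limma adjusted p = 0.922), and within a number it was 0.64 for number 2 and -0.42 for number 1.

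The first Cxcr2 probe set was at 3.10 in the sample at 30 min numbered 2 and 3.86 in the one numbered 1, against 2.89 to 3.36 in non-wounded samples. The value of 3.86 was its highest in any sample, 0.97 above the non-wounded sample numbered 1. In that pair 5.22% of all probe sets were higher by 1 or more on the log2 scale. The log2 difference at 30 min was 0.36 ± 0.25 (SE, limma adjusted p = 0.737) for the first probe set and -0.43 ± 0.52 (SE, limma adjusted p = 0.776) for the second. The probe sets thus gave opposite signs, and neither passed. Without the sample at 30 min numbered 1 the first was at -0.02 and the second at 0.21. Of the 1246 probe sets, 0 (0.0%) passed in limma, both without and with the replicate block, and 63 (5.06%) had an unadjusted p under 0.05. Without the sample at 30 min numbered 2, 74 probe sets passed, and none of them belonged to the 3 genes (smallest limma adjusted p = 0.100). That fit has 1 sample at 30 min, from the set numbered 1, and assumes that it varies like the samples of the other groups.

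Set directly against 30 min, the levels at 2 h were higher for both ligands in both numbers that have the pair. The difference within number 2 was 3.54 for Cxcl2 and 1.69 for Cxcl1, and within number 1 it was 0.36 and 0.89. Over all samples the log2 difference between 2 h and 30 min was 2.65 ± 0.71 (SE) for Cxcl2 and 2.21 ± 0.66 for Cxcl1. Of all probe sets, 2.17% had an unadjusted p under 0.05 in this comparison. All 4 samples at 2 h lay above both samples at 30 min for each ligand, which held for 3.77% of all probe sets. These values share the 2 h samples with the comparison above and are no separate evidence.

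The samples numbered 1 form the only full time course, with 1 sample at each time. Cxcl1 had levels of 3.62 (non-wounded), 3.34 (0 h), 3.19 (30 min), 4.09 (sample at 2 h) and 6.30 (sample at 4 h). The sample at 4 h was 2.68 above the non-wounded sample and 2.21 above the sample at 2 h, and it ranked 2nd of all probe sets in difference from the non-wounded sample. Cxcl2 in the same samples was at 2.73, 3.27, 3.47, 3.83 and 3.94, so its level at 4 h was 0.11 above that at 2 h. In these samples most of the Cxcl1 difference lay between 2 h and 4 h, while Cxcl2 was spread over small steps. The arrays at 30 min, 2 h and 4 h had similar spreads (SD 1.56, 1.59 and 1.55). The non-wounded and 0 h arrays spread more (SD 1.81 and 1.85), so differences from the non-wounded sample compare arrays of unlike spread. The share of all probe sets higher by 1 or more than without wounding was 0.321% at 0 h and 5.22% at 30 min. It was 3.29% at 2 h and 3.29% at 4 h in this set. At 4 h, 3.05% were higher by 1 or more than at 2 h. With 1 sample per time there is no test.

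Relative to the mean of all 4 non-wounded samples, Cxcl1 at 4 h was 2.93 higher and Cxcl2 was 1.09 higher, both above the non-wounded range. This held, at 1 or more, for 6.18% of all probe sets. At 0 h Cxcl1 was at -0.03 and inside the range, and Cxcl2 was at 0.42 and above it. Scaling all samples to one median and SD, or quantile normalization, put Cxcl2 at 0.71 and 0.73 at 4 h and at 0.13 and 0.20 at 0 h, and Cxcl1 at 3.23 and 3.70 at 4 h and at -0.31 and -0.23 at 0 h. The first Cxcr2 probe set had levels of 3.02 at 0 h and 2.86 at 4 h, differences of -0.11 and -0.26 from that mean. The second had levels of 3.69 and 3.73, differences of -0.60 and -0.57.

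**Figure D2:**
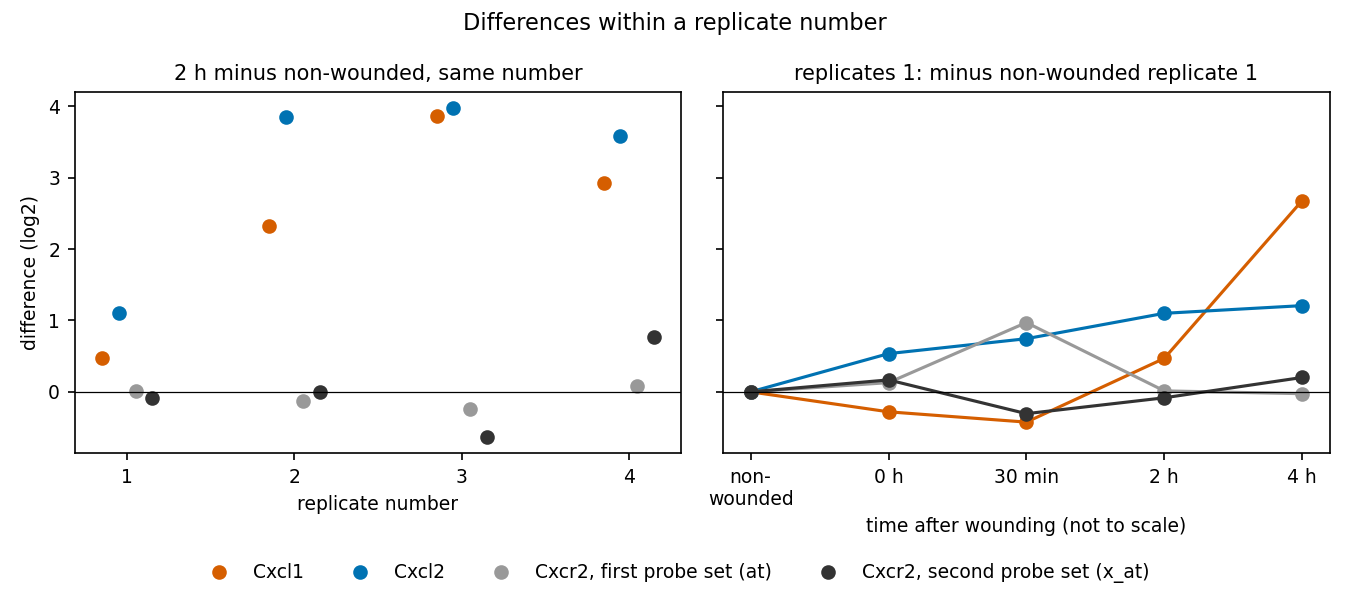
Log2 differences of the 4 probe sets, at left for each replicate number (2 h minus non-wounded), and at right from the non-wounded sample numbered 1 over the times of that set (1 sample each, no error). At left Cxcl2 lies above Cxcl1 in each pair, and at right Cxcl1 reaches 2.68 at 4 h, against 1.21 for Cxcl2.

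Other ligands of CXCR2 stayed near their non-wounded levels at 2 h, which are not shown to be above background. In the samples numbered 2 to 4, Cxcl5 lay between 2.12 and 2.30, Ppbp between 2.27 and 2.57 and Cxcl15 between 2.80 and 3.08. These levels lie under the 25th percentile of the mean levels of all probe sets (3.197). With no detection call, an unchanged transcript and an undetected one cannot be told apart. Of the 3 others measured, 0 passed in limma. Over all probe sets limma called 0.241% without the replicate block and 1.36% with it, and 4.65% had an unadjusted p under 0.05. Cxcl5, made by epithelial cells in inflammation, was at a log2 difference of 0.23 ± 0.30 (SE, limma adjusted p = 0.998). Ppbp, the precursor of the platelet chemokine CXCL7, was at 0.11 ± 0.22, and Cxcl15, known as lungkine in the mouse, was at 0.05 ± 0.21 (both limma adjusted p = 0.998). Cxcl3 was not analysed here. Cxcl5 in the set numbered 1 was 0.92 higher at 2 h, while in the samples numbered 2 to 4 its difference was 0.0048.

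Other genes lie beside the ligands on chromosome 5. By the RefSeq table the measured ones run Cxcl5, Ppbp, Pf4, Cxcl15, Cxcl1, Cxcl2, Areg and Btc. Pf4, a platelet chemokine without the ELR letters, was at 0.15 ± 0.14 (SE) at 2 h. Areg, an EGF family ligand, was at 1.39 ± 0.28 (SE), with a limma adjusted p of 0.087, or 0.0297 with the replicate block. Btc, of the same family, was at -0.16 ± 0.43 (SE, limma adjusted p = 0.998).

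Of the 6 other CXC chemokines measured, 0 passed at 2 h with or without the block, with differences from -0.02 (Cxcl13) to 0.45 (Cxcl14) and a median of 0.12, against 0.03 over all probe sets. Cxcl14, a chemokine that resting epidermis makes, was at 0.45 ± 0.38 (SE, limma adjusted p = 0.998). Of the 6 other CXC and atypical receptors, 0 passed, with a median of -0.06. Cxcr1, the closest relative of Cxcr2, was at 0.16 ± 0.27 (SE), and Cxcr6, found on T cells, was at -0.43 ± 0.21 (SE), both with a limma adjusted p of 0.998. At 30 min none of these genes passed either.

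**Figure D3:**
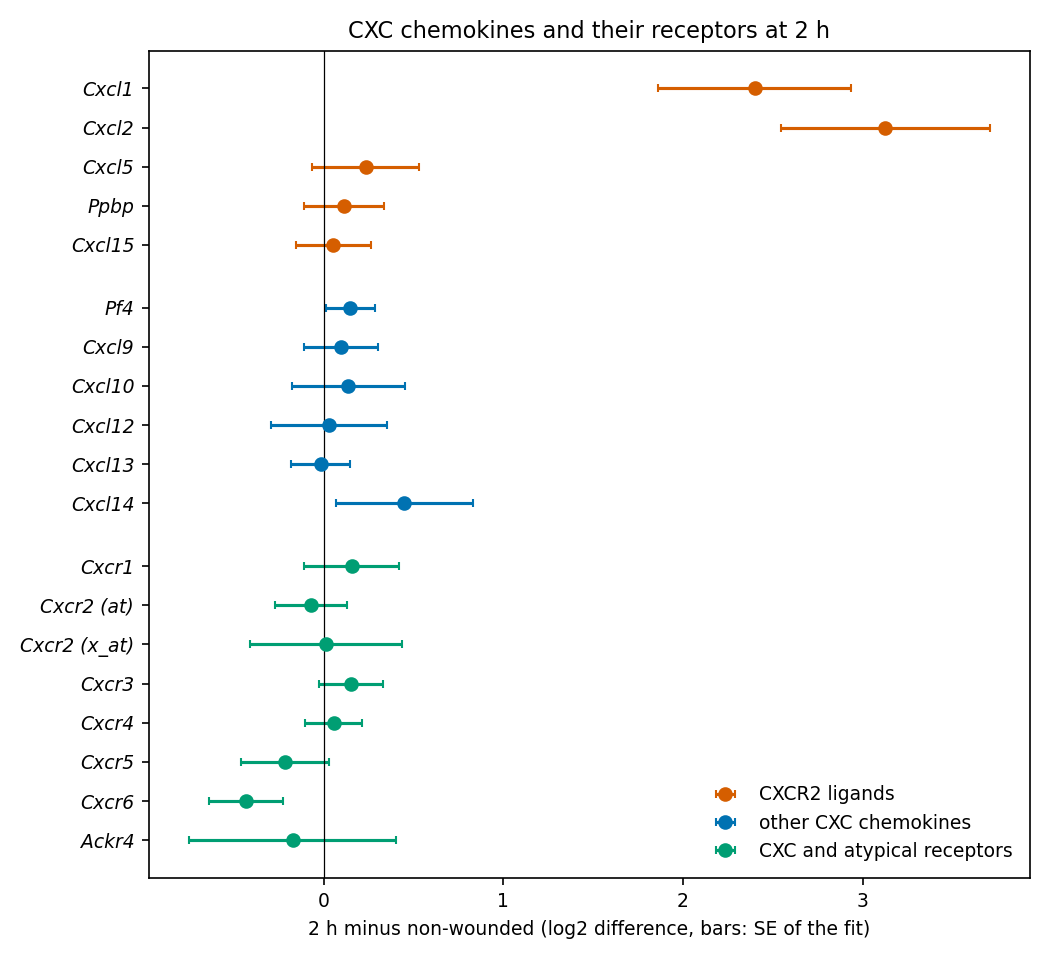
Log2 difference between 2 h and non-wounded samples, with the SE of the fit, for the measured CXCR2 ligands, other CXC chemokines and receptors (n = 4 samples in each group). Cxcl2 at 3.13 and Cxcl1 at 2.40 lie apart from the rest, which run from -0.43 (Cxcr6) to 0.45 (Cxcl14).

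Cytokines that can induce the ligands gave mixed values. Of the 16 measured cytokines and receptors (interleukin 1 and 36, interleukin 17, Il6 and Il22), 6 were higher and 10 lower at 2 h, the median was -0.15, and 0 passed with or without the block. Il1b, an inflammatory cytokine, was at 4.43, 5.86, 4.99 and 4.58 in the samples at 2 h numbered 2, 3, 4 and 1, against 3.62, 3.52, 3.61 and 4.08 in the non-wounded samples of those numbers. The groups did not overlap, and 2.01% of all probe sets had all 4 samples at 2 h above all 4 non-wounded samples. The log2 difference of Il1b was 1.26 ± 0.34 (SE, limma adjusted p = 0.354, or 0.0987 with the block). In the set numbered 1, Il1b was 0.99 above the non-wounded sample at 30 min, 0.51 at 2 h and 1.91 at 4 h. Il6, another inflammatory cytokine, was at 1.01 ± 0.29 (SE, limma adjusted p = 0.354). Il1a, an alarm cytokine stored in keratinocytes, was at -0.41 ± 0.23, and Il1f9, the gene of IL-36 gamma, was at -0.89 ± 0.37 (SE, limma adjusted p = 0.998 and 0.876). Tnf was not analysed here.

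Junb, an AP-1 subunit, was at 1.74 ± 0.50 (SE) at 2 h, with a limma adjusted p of 0.354, or 0.0448 with the block. NF-kB subunits were not analysed here. Among 11 measured genes of neutrophil adhesion and mobilisation, 10 were higher at 2 h with a median of 0.16. Of these 11, 0 passed without the block and 1 rose with it, Icam1, the endothelial and epithelial ligand of leukocyte integrins. Icam1 was at 2.56 ± 0.48 (SE, limma adjusted p = 0.0777, or 0.0114 with the block). The endothelial selectins Sele and Selp, which slow leukocytes in vessels, were at 0.27 ± 0.22 and 0.16 ± 0.16, and Csf3, the growth factor that mobilises neutrophils, was at 0.05 ± 0.15 (SE, each with a limma adjusted p of 0.998).

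Markers of neutrophils were measured beside the receptor. Of 26 listed, 7 were measured, and the granule and surface markers S100a8, S100a9, Ly6g and Mpo were not analysed here. At 2 h 7 of 7 were higher, with a median of 0.22 against 0.03 over all probe sets and differences from 0.14 (Clec5a) to 0.44 (Clec4d), and 0 passed. Their mean log2 level was 3.91 to 4.23 over the 4 samples at 2 h and 3.70 to 3.88 over the 4 non-wounded samples. Most of their summed linear level came from Il1r2, a decoy receptor for interleukin 1 that is also on other cells. Il1r2 was at 10.44, 10.18, 10.19 and 8.61 in the samples at 2 h numbered 2, 3, 4 and 1, against 9.45, 10.09, 10.29 and 8.14 in the non-wounded ones, and the groups overlapped. Without it the sum was 43.6 to 50.3 at 2 h and 38.5 to 40.8 in non-wounded samples among those numbered 2 to 4, and 70.7 at 2 h and 56.4 in the non-wounded sample among those numbered 1. Among those numbered 2 to 4 the sums at 2 h were thus higher with no overlap, while the set numbered 1 has 1 sample per time. This was not particular to neutrophil markers. The sum of the 7 dermal fibroblast markers was 114.9 to 135.9 at 2 h and 88.9 to 103.6 in non-wounded samples among those numbered 2 to 4. In the samples numbered 1 it was 150.7 at 2 h and 119.3 in the non-wounded one. The mean log2 level of the 7 neutrophil markers in the samples numbered 2 to 4 was 3.91 to 3.99 at 2 h and 3.70 to 3.74 in non-wounded samples. Csf3r, the receptor for the neutrophil growth factor, was at 0.36 ± 0.24 (SE, limma adjusted p = 0.998). Whether a change in cells had a part in the ligand levels was not tested.

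Markers of other cells were counted at 2 h in the same way, and 0 of those given here passed without the block. Of 7 measured dermal fibroblast markers, 7 were higher, with a median of 0.31 (0.13 among samples numbered 2 to 4). Of 4 Langerhans cell markers, 2 were higher, with a median of 0.40 (3 higher and 0.54 in the samples numbered 2 to 4). Cd207 rose with the block (0.91, limma adjusted p = 0.0448, or 0.998 without it), and in the samples numbered 2 to 4 it was at 1.02 (limma adjusted p = 0.101). Cd83, a maturation marker of dendritic cells, was at 1.5 (limma adjusted p = 0.354, or 0.0900 with the block), and it rose in the samples numbered 2 to 4 (1.97, limma adjusted p = 0.0104). Cd74 was at -0.11 and Csf1r at -0.23 (both limma adjusted p = 0.998), or 0.05 and -0.10 in the samples numbered 2 to 4. Over all probe sets limma called 1.36% with the block and 3.05% in the samples numbered 2 to 4. Of 4 keratinocyte markers, 1 was higher, Areg, and the median was -0.18; in the samples numbered 2 to 4, 2 of 4 were higher and the median was -0.0082. Of 4 monocyte and macrophage markers, 3 were higher with a median of 0.19 (0.099 in the samples numbered 2 to 4). Of 4 T cell markers, 3 were higher with a median of 0.12 (0.086 in the samples numbered 2 to 4, with 2 higher). Their part in the ligand values was not tested.

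Among the other named probe sets, those most like the ligands were found by Pearson correlation of log2 levels over the 7 samples numbered 2 to 4. For Cxcl2 the highest were Vegfa (0.976), an angiogenic factor, Ccl20 (0.974), the chemokine that binds CCR6, Icam1 (0.970), Cxcl1 (0.961) and Uap1 (0.959), which makes UDP-N-acetylglucosamine. For Cxcl1 they were Ccl20 (0.983), Il1b (0.971), the galactosyltransferases B3galt5 (0.966) and B4galt5 (0.965) and Icam1 (0.963). Cxcl2 ranked 7th for Cxcl1 (0.961, or 0.980 without the 2 samples farthest from the Cxcl1 median). Those 2 are the samples at 2 h numbered 3 and 4, so 0.980 rests largely on the sample at 2 h numbered 2. Over all 12 samples Cxcl1 and Cxcl2 correlated at 0.858. Cxcl1 then correlated at 0.975 with Ccl20, 0.936 with Icam1, 0.808 with Il1b, 0.733 with B4galt5 and 0.724 with B3galt5. Cxcl2 over the same 12 correlated at 0.965 with Vegfa, 0.943 with Icam1, 0.906 with Ccl20 and 0.785 with Uap1. The 7 points are 3 samples at 2 h and 4 others, which share arrays and processing, so they are a description only.

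Cxcr2 was far from this group, though its first probe set is not shown to be above background. That probe set correlated at -0.324 with Cxcl2 and -0.488 with Cxcl1 over the 7 samples, and the second at 0.057 and -0.053. At 4 h, in the set numbered 1, Ccl20 was 3.39 and Icam1 2.15 above the non-wounded sample, beside 2.68 for Cxcl1. Vegfa and Uap1 were 0.45 and 0.84 above it, beside 1.21 for Cxcl2. Ccl20 and Icam1 were among the genes most like Cxcl2 as well as Cxcl1. The other genes most like Cxcl1, Il1b, B3galt5 and B4galt5, were at 1.91, -0.04 and 0.80 at 4 h. With 1 sample at 4 h, the genes are not shown to part into groups.

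**Figure D4:**
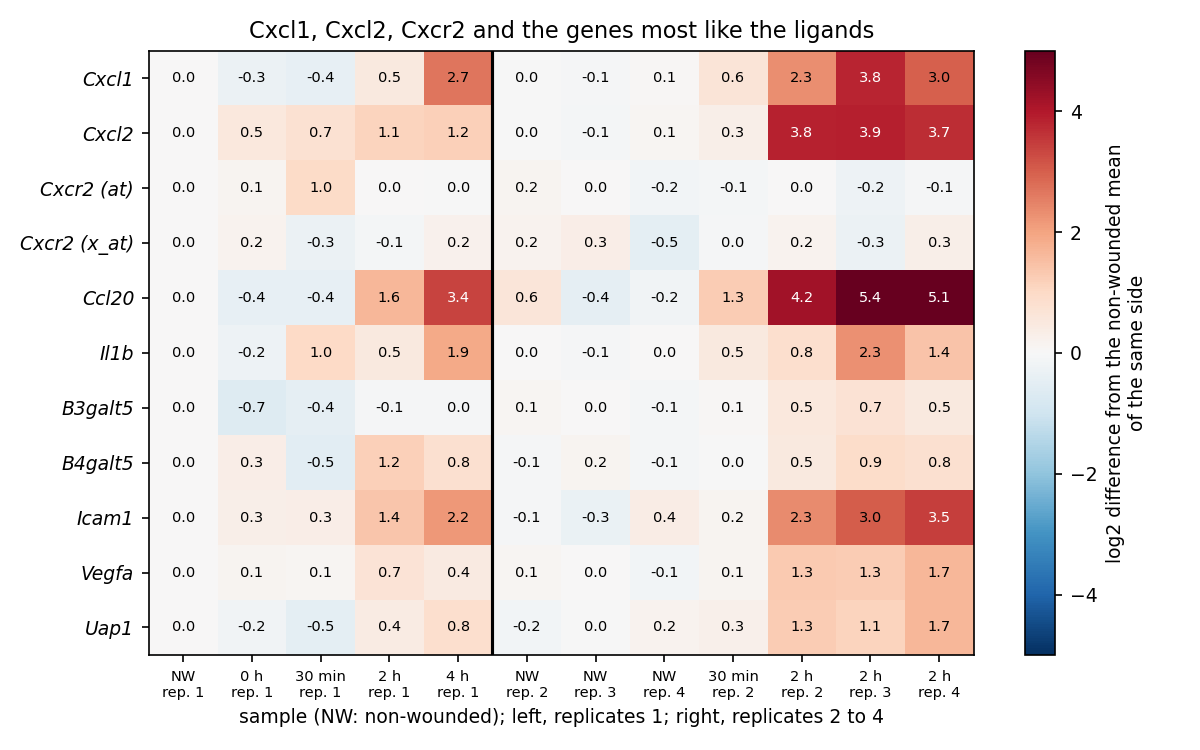
Log2 difference of each sample from the non-wounded mean of its own set (at left the 5 samples numbered 1, at right the 7 numbered 2 to 4) for the 4 probe sets and the named genes most like the ligands. Cxcl1, Ccl20 and Icam1 are high at 2 h in the samples numbered 2 to 4 and in the single sample at 4 h. At 2 h in the set numbered 1 they are at 0.47, 1.65 and 1.37. Both rows of Cxcr2 stay between -0.50 and 0.97.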

How the data were processed

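Biotin-labelled cRNA was hybridised to Affymetrix arrays, per the labels' protocols. RMA, which corrects background, normalizes and summarises probes, was used per the submitters' processing notes, and the sources used here give no version or filter for it. The values deposited by the authors were log2 values (from their range of about 2 to 13), with no detection call, for 12 samples. Precision is limited by the number of arrays.

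Probe sets were named by RefSeq accession (963 of 1246). A listed gene with several probe sets was represented by the one with the highest mean; both Cxcr2 probe sets are given. The members and lists were chosen with earlier results of these data known. The text names the members, measured genes of the lists, neighbouring genes, and the 5 named probe sets most correlated with each ligand over the 7 samples numbered 2 to 4. Btc, a neighbour outside the lists, was added with its values known.

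Differences come from limma 3.58.1 (R 4.3.3) with group means over 12 samples, with Benjamini-Hochberg adjustment over 1246 probe sets at 0.05. The fit was checked on simulated data. Alternatives were other normalizations, a dim filter, other priors, the sample sets and leaving out each sample. Over all samples, deviations from the group means correlated between same-numbered samples at 2 h and without wounding. The correlations were 0.796, 0.449, 0.651 and 0.297 for numbers 1 to 4, taken from the titles. Without number 1 they were -0.150, 0.0727 and -0.319 for numbers 2 to 4, so a pairing among these numbers was not shown. The number was fitted as a block as an alternative. No 2 columns were identical. Sequences are from RefSeq (GRCm38.p6).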

Additional observations from a re-analysis of the deposited data

Results flagged for a closer look

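The level of Cxcl2 in the sample at 2 h numbered 1, 3.83, lay far below the other 3 samples at 2 h: the gap to the next of them was 0.939 of the whole range of the group, above Dixon's critical value for 4 samples. Of the 8 groups of 4 samples checked, 1 had such a gap. Chance gives such a gap in about 5% of groups whose samples are all of 1 kind. The flagged sample is from the set numbered 1, which stood apart, so that rate does not apply here. The same sample was the lowest of its group for Cxcl1 (4.09) and for both Cxcr2 probe sets (2.90 and 3.44). Without it, the Cxcl2 difference between 2 h and non-wounded was 3.84 on the log2 scale, against 3.13 with it.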

How the results depend on the processing

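At 2 h against non-wounded, the Cxcl1 and Cxcl2 differences stayed within 1 residual SD of 2.40 and 3.13 in every alternative run (with the replicate block 2.40 and 3.13; leaving out 1 sample, 1.955 to 2.96 and 2.865 to 3.84), and they stayed positive. The count of all probe sets called at 2 h was 3; it was 17 under the replicate block, 20 with a term for number 1, 38 for numbers 2 to 4, 7 with quantile normalization, 8 with trend and robust prior, 0 with median centring (70 at an unadjusted p under 0.05), and 0 to 11 leaving out 1 sample. At 30 min no alternative brought a probe set of the 3 genes past the threshold (59 fits, limma adjusted p from 0.1002 to 0.9995). Cxcl1 at 30 min turned to -0.037 with quantile normalization and -0.11 with one median and SD, a scaling under which the median over all probe sets was -0.09, against 0.04 as deposited. The first Cxcr2 probe set turned to -0.10 in the samples numbered 2 to 4, where it was 0.0047 between 2 h and 30 min. Leaving out 1 sample gave -0.17 to 0.55 for Cxcl1, -0.022 to 0.73 for the first and -1.075 to 0.21 for the second Cxcr2 probe set at 30 min, and -0.80 to -0.047 for the first between 2 h and 30 min.

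For the single samples, given in the order of the non-wounded sample numbered 1 alone, one median and SD, and quantile normalization, Cxcl1 was 2.68, 3.23 and 3.70 at 4 h and -0.28, -0.31 and -0.23 at 0 h. The first Cxcr2 probe set was -0.026, -0.93 and -0.71 at 4 h and 0.13, -0.40 and -0.33 at 0 h. With the 2 scalings Cxcl2 was 0.71 and 0.73 at 4 h and 0.13 and 0.20 at 0 h. Against the non-wounded sample numbered 1 the second Cxcr2 probe set was 0.20 at 4 h and 0.17 at 0 h. Scaling to one median and SD put the median over all probe sets at 4 h at -0.21, against 0.14 as deposited. The first Cxcr2 probe set fell under the filter on dim probe sets, so it has no value there, and 3 of 4 passed. The causes were not tested.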
